A study of Mus musculus with 4 samples.

Results

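Cthrc1 (ENSMUSG00000054196), which encodes collagen triple helix repeat containing 1, was followed through single-cell RNA-sequencing of mouse carotid arteries before and after wire injury. It is 1 of the 31053 genes listed in the libraries, of which 20506 had at least 1 unique molecular identifier (UMI, the tag that counts each captured transcript once). The gene was chosen by its measured levels in these same libraries. Its levels are therefore given as a description, without a test, and so are the genes found beside it in fibroblast-like cells of days 7 and 14.

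Cells came from carotid arteries of male C57BL/6 mice that were 11 weeks old at injury, with no allele, transgene or drug named for any group. The day 0 library held uninjured vessels, and the libraries of days 3, 7 and 14 held vessels taken on those days after a wire was passed through the left carotid artery, which strips the endothelium and damages the wall. Arteries from several mice were combined for each day, and the methods state that thrombosed ones were discarded. The sample notes give the same digestion and removal of dead cells for all 4 libraries. Each day had 1 library, so a difference between days cannot be told apart from a difference between libraries, and every interval below is a 95% interval of counting error only.

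Cthrc1 is a secreted glycoprotein with a short collagen-like stretch, known from injured arteries, where it is found in adventitial cells and in cells of the neointima. TGF-beta signalling is known to raise its expression. The protein is reported to bind Wnt ligands, Frizzled receptors and the co-receptor Ror2 and to favour the planar cell polarity branch of Wnt signalling over the beta-catenin branch. In the injured heart and lung it marks activated, matrix-producing fibroblasts.

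The 4 libraries held between 333 barcodes (day 0) and 3001 barcodes (day 7), with 2672722 to 27973418 UMIs each, and 5412 cells entered the analysis. The libraries shared 217 cell barcodes. In 214 of these pairs, the shallower member held at most 5.51% of the UMIs of the deeper one and had at most 2.86% of its own UMIs in genes that the deeper one lacked. Day 0 contained 48 such shallow barcodes matching day 3 cells, day 3 contained 104 matching day 0 cells, and day 14 contained 62 matching day 7 cells. They carried 15 of the 25 Cthrc1 UMIs of the whole day 0 library, 0 of 3321 at day 3 and 33 of 6597 at day 14. The 214 shallow barcodes were removed, a choice made after the data were examined, and results with them kept are given below where they differed.

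Fibroblast-like cells, the class with nearly all Cthrc1 of the injured vessels, numbered 231, 135, 228 and 541 at days 0, 3, 7 and 14, or 82.2%, 9.59%, 8.47% and 52.5% of the cells kept. All 12 fibroblast markers used to name cells, among them Pdgfra, Dcn and Lum, reached 50 CPM (UMIs of a gene for each 1000000 UMIs of the cells summed) in this class on every day. Cthrc1 was nearly absent from these cells before injury, with 6 UMIs in 2215708, or 2.71 CPM (0.994 to 5.89). The day 3 library had 574 CPM (555 to 595). Day 7 had the highest level, 1450.0 CPM (1420 to 1481), and the day 14 level was 725 CPM (707 to 742). The 4 intervals did not overlap. Day 7 was 535 times day 0 (246 to 1459) and 2.52 times day 3 (2.42 to 2.63), and day 14 was 0.50 times day 7 (0.484 to 0.516). The order day 0, day 3, day 14, day 7 was the same in the main analysis and in all 8 alternatives run for this level, shared barcodes kept included.

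The share of fibroblast-like cells with a Cthrc1 UMI was lowest at day 0 and highest at day 7 at each depth used, whereas the order of days 3 and 14 depended on the depth. After each cell was thinned to 1000 UMIs, 0 of 207 day 0 cells retained Cthrc1, so that the share may be as high as 1.45%. The thinned share was 26.0% of 127 cells at day 3 (18.6 to 34.5), 51.9% of 214 cells at day 7 (45.0 to 58.7) and 31.9% of 508 cells at day 14 (27.9 to 36.1). The intervals of days 3 and 14 overlapped. Shallower cells were left out of this measure, 24, 8, 14 and 33 in day order. Without thinning, 2.60%, 70.4%, 77.6% and 67.3% of the cells were positive, at median depths of 8400, 33731, 20188.5 and 17635 UMIs. Immune-like cells, which are not known to make Cthrc1, were positive in 3.72%, 15.1% and 5.73% of cells at days 3, 7 and 14, at median depths of 5316, 7472 and 5307.5 UMIs.

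Within the fibroblast-like class, single cells differed widely. Among cells of at least 1000 UMIs, the median cell held 0, 227, 843 and 234 CPM in day order. The lower and upper quartiles were 0 and 669 CPM at day 3, 85.6 and 1774 CPM at day 7, and 0 and 743 CPM at day 14. The highest cells of days 3, 7 and 14 reached 2730, 6229 and 8923 CPM, so the highest single level belonged to day 14 although that library's summed level was 0.50 times that of day 7. The tenth of cells with the most Cthrc1 UMIs carried 52.8%, 48.1% and 56.0% of the class's Cthrc1 UMIs at days 3, 7 and 14, against 23.0%, 20.9% and 18.0% of its UMIs of all genes. At day 0 each of the 6 positive cells held exactly 1 Cthrc1 UMI.

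**Figure D1:**
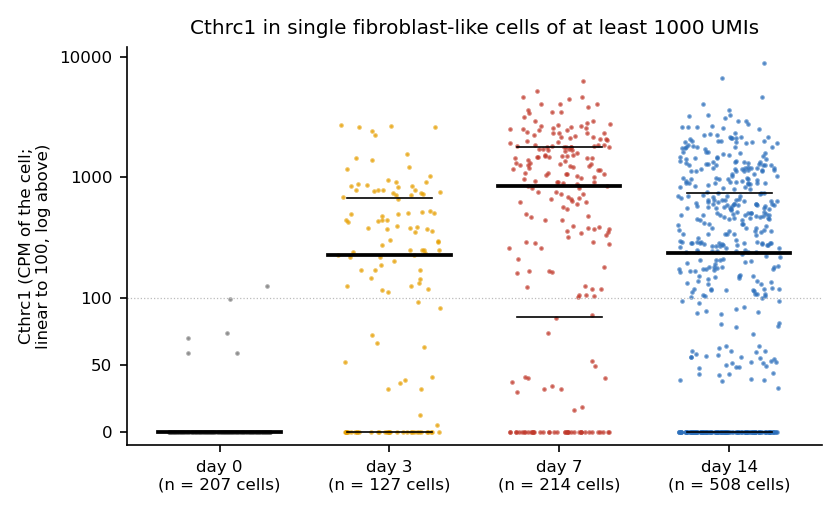
Each point is 1 fibroblast-like cell of at least 1000 UMIs, the vertical axis is Cthrc1 in CPM of that cell (linear up to 100, logarithmic above), thick bars are medians and thin bars quartiles. The day 7 cells have the highest median, 843 CPM, while nearly all day 0 cells lie at 0.

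Values of other cell types within the class moved with the days as well. The summed level of 12 immune cell genes in fibroblast-like cells was 3.61, 109, 291 and 38.5 CPM at days 0, 3, 7 and 14, with 7, 1, 0 and 2 of the 12 genes at 0. The 12 smooth muscle markers summed to 556, 554, 1766 and 558 CPM and the 12 endothelial markers to 262, 43.7, 106 and 68.5 CPM. Their part in the Cthrc1 levels was not tested.

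Of the Cthrc1 UMIs of all cells kept, the class held 97.2% in the day 3 library (96.5 to 97.7). Its share was 90.5% for day 7 (89.9 to 91.1) and 99.3% for day 14 (99.1 to 99.5). At day 0 it held 6 of 10 UMIs, and the other 4 lay in a single endothelial-like cell of 9278 UMIs, which put the 6 endothelial-like cells at 267 CPM (72.8 to 685). With the shared barcodes kept, the fibroblast-like share of the day 0 UMIs was 24%. Barcodes whose clusters stayed unnamed held 748 CPM at day 7 (657 to 848), in 370 barcodes. Among the 24 named class and day groups of at least 20 cells, the 3 highest levels belonged to fibroblast-like cells of days 7, 14 and 3, followed by smooth muscle-like cells of day 7 with 194 CPM (171 to 219) and endothelial-like cells of day 7 with 86.8 CPM (67.0 to 111). From the fifth level downward, the intervals of every pair of neighbouring groups overlapped.

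The levels of immune-like cells were read against free RNA, the transcripts from broken cells that enter every droplet. Immune-like classes together held 4.20 CPM at day 3 (3.00 to 5.72), 18.9 CPM at day 7 (16.9 to 21.0) and 8.56 CPM at day 14 (5.43 to 12.9), in the day order of the fibroblast-like level. For each 1000 UMIs of the collagen gene Col3a1, these cells held 49.8, 73.8 and 33.7 Cthrc1 UMIs at days 3, 7 and 14. Fibroblast-like cells held 33.6, 60.3 and 27.0. The immune-like ratio lay above that of fibroblast-like cells without overlap of the intervals at days 3 and 7. With Col1a1 in place of Col3a1, the ratios were 94.6, 101 and 49.0 in immune-like cells against 44.2, 79.8 and 35.2 in fibroblast-like cells. With Sparc they were 129, 150 and 49.9 against 61.6, 91.8 and 36.1. The source of the immune-like UMIs was not tested, and these low levels are not read as expression. No immune-like cell had a Cthrc1 UMI at day 0, when 27 such cells were kept.

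Smooth muscle-like cells, defined by contractile genes such as Myh11 and Cnn1, carried Cthrc1 mainly at day 7. They held 0 Cthrc1 UMIs in 12 cells at day 0, which allows up to 30.1 CPM, and the day 3 cells held 6.58 CPM (3.90 to 10.4). The day 7 level was the 194 CPM given above, and the day 14 cells held 15.3 CPM (9.37 to 23.7). Of 259 UMIs at day 7, 204 lay in 1 cell of 131625 UMIs. Without the cell of highest Cthrc1 count, the levels of days 3, 7 and 14 were 3.44, 45.6 and 1.59 CPM, so each value moved by more than 1.5 times with a single cell. The 5 smooth muscle-like cells with 4 or more Cthrc1 UMIs had depths of 122628, 56493, 151148, 131625 and 50011 UMIs. In that order they held 1, 1, 7, 1 and 2 UMIs of the fibroblast gene Pdgfra and 77, 14, 6, 38 and 0 of Cnn1. Col3a1 had 189, 278, 720, 942 and 214 UMIs and Dcn 0, 38, 728, 150 and 7. The class as a whole held 2592, 4215 and 2927 CPM of Col3a1 at days 3, 7 and 14, and 10.2, 19.4 and 27.6 CPM of Pdgfra.

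Endothelial-like cells were described in the same way. At day 7, 14 of 55 were positive, and 6 of them held 4 or more UMIs, 54 UMIs in all. These 6 cells held 4, 4, 5, 8, 14 and 19 Cthrc1 UMIs at depths of 51318, 39436, 70449, 90321, 138009 and 88501 UMIs. Each of them also had between 63 and 124 UMIs of the endothelial gene Pecam1 but at most 12 UMIs of Col3a1, and 4 of the 6 had no Pdgfra UMI. The fibroblast gene Dcn reached 43 and 86 UMIs in 2 of them and at most 10 in the other 4. For each 1000 Col3a1 UMIs, day 7 endothelial-like cells held 328 Cthrc1 UMIs (253 to 418), above the 60.3 of fibroblast-like cells of that library (59.0 to 61.6). For each 1000 UMIs of Sparc, a matrix gene that endothelial cells also express, the order was the other way, with 29.7 (22.9 to 37.8) against 91.8 (89.8 to 93.7). At day 3, 2 of 40 endothelial-like cells were positive, at 44.8 CPM (20.5 to 85.0), and 16.2 CPM without the cell that held 7 of the 9 UMIs.

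**Figure D2:**
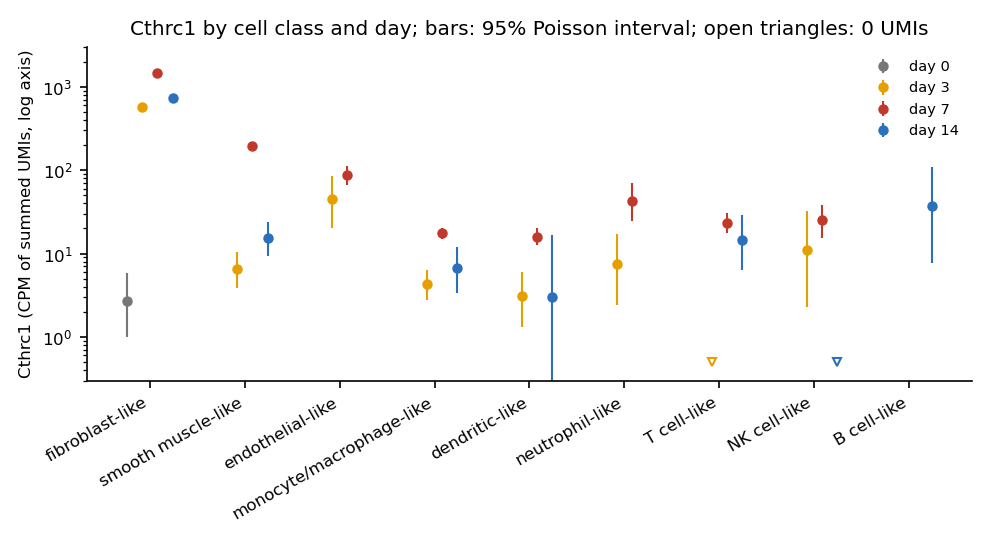
Cthrc1 in CPM of summed UMIs (log axis) for each cell class and day with at least 20 cells, with 95% Poisson intervals; intervals that reach below the axis are cut off at its lower end and open triangles near that end stand for groups without a Cthrc1 UMI. Fibroblast-like cells of days 3, 7 and 14 lie above every other group, at 574, 1450.0 and 725 CPM.

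To describe variation inside the class, the non-immune cells were clustered again with Cthrc1 and the matrix, Wnt and TGF-beta genes described below left out of the genes that build the clusters. The sub-clusters are named by their leading genes. The cells led by C1qtnf3, Angptl1 and Cilp had the highest level, 1299 CPM over all days (1268 to 1331), and were found only in the day 7 library (25 cells) and the day 14 library (196 cells). In them, 206 of 221 cells were positive. Sums over all days mix different shares of each day, so the order below is that of the mixed sums. Cells led by Saa3, Lcn2 and Spp1, genes of the acute inflammatory response and wound matrix, held 755 CPM, cells led by Igfbp5, Clec3b and Sema3c held 668 CPM, and cells led by Saa3, Isg15 and Clec3b held 633 CPM. Cells led by Abca8a, Fmod and Fmo2, which made up 55.4% of the day 0 fibroblast-like cells, held 253 CPM over all days. At day 7 alone, fibroblast-like cells led by Igfbp5 held more than those led by Saa3 and Lcn2. The sub-cluster led by the contractile genes Tagln and Myh11, almost wholly smooth muscle-like, held 8.08 CPM (5.32 to 11.7).

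The difference between days 7 and 14 was also seen within sub-clusters. In fibroblast-like cells of the sub-cluster led by C1qtnf3, the level was 2578 CPM at day 7 (2467 to 2693) and 1066 CPM at day 14 (1036 to 1098). In those led by Igfbp5 it was 1924 CPM from 11 cells at day 7 and 584 CPM from 84 cells at day 14. The pair of values was 863 and 271 CPM in cells led by Abca8a, and 938 and 260 CPM in cells led by Saa3 and Isg15. The 7 day 14 cells of the sub-cluster led by Saa3 and Lcn2 held 945 CPM, against 1384 CPM in 73 cells at day 7. The intervals of both days did not overlap in any of these 5 sub-clusters. The cells led by Abca8a held 3.80 CPM at day 0 (1.39 to 8.27) and 69.8 CPM in 11 cells at day 3 (28.0 to 144).

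The sub-clusters that carried most of the transcript changed with the day. At day 3, the sub-cluster led by Saa3 and Lcn2 held 67.7% of the fibroblast-like Cthrc1 UMIs in 40% of the cells, and that led by Saa3 and Isg15 a further 28.4%. At day 7, the sub-cluster led by Saa3 and Lcn2 held 55.1% in 32.0% of the cells, and that led by C1qtnf3 held 23.4% in 11.0% of the cells. At day 14, the latter held 70.7% in 36.2% of the cells. At a finer resolution, a separate sub-cluster of 147 cells led by Abca8a and Rbp4, with 118 cells from day 0, 1 from day 7 and 28 from day 14, held 18.2 CPM (12.6 to 25.4), while the highest level was 1256 CPM, again in cells led by C1qtnf3 and Angptl1.

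**Figure D3:**
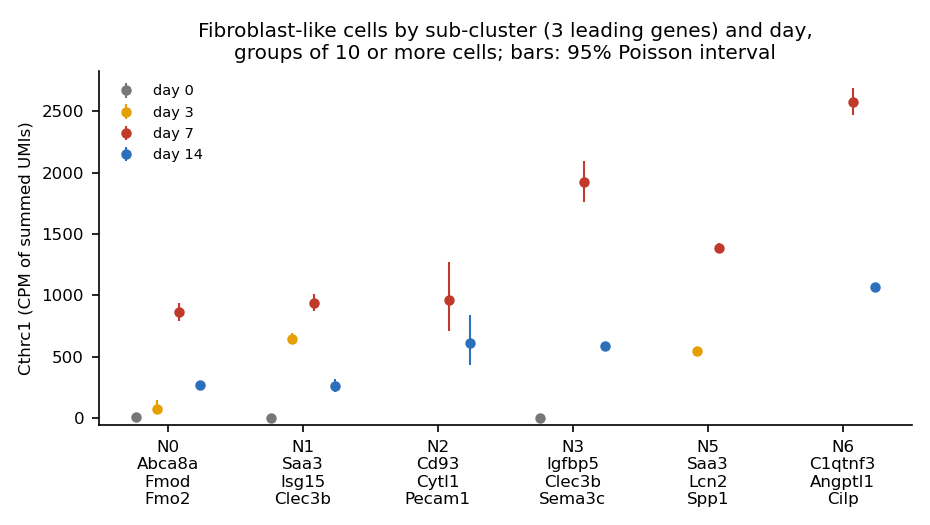
Cthrc1 in CPM of summed UMIs for fibroblast-like cells of each sub-cluster and day with at least 10 cells, labelled by 3 leading genes, with 95% Poisson intervals. Day 7 lies above day 14 in the 5 sub-clusters plotted at both days, in which N2 alone has overlapping intervals, and the highest value is that of day 7 cells led by C1qtnf3, 2578 CPM.

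The genes that went with Cthrc1 from cell to cell were sought among 9070 genes detected in at least 10% of the fibroblast-like cells of both days 7 and 14. Pearson's r of log-scaled counts was computed across the 228 cells of day 7 and the 541 cells of day 14. These cells share a library and differ in depth, so r is a description. Over all genes, the median of the lower of both r values was 0.02 and the 95th percentile 0.17. The 15 genes with the highest lower r ranged from 0.35 to 0.46. Among them, Aspn, Col12a1, Lox, Fn1, Postn and Col5a2 belong to the list of injury-activated matrix genes described below. Mfap5 belongs to the list of resting adventitial genes, and the others belong to no list.

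Among the structural matrix genes, Aspn, a small leucine-rich proteoglycan, had an r of 0.46 at day 7 and 0.59 at day 14. Fn1, which encodes fibronectin, had 0.40 and 0.53, Postn (periostin) with 0.56 and 0.37, Mfap5 (a microfibril protein) with 0.61 and 0.43, and Ogn (osteoglycin) with 0.39 and 0.45. The fibrillar and fibril-associated collagen genes Col5a2 and Col12a1 had 0.43 and 0.36, and 0.44 and 0.42. The enzyme genes were Lox, the lysyl oxidase that cross-links collagen, with 0.52 and 0.42, and P4ha3, a prolyl hydroxylase subunit for collagen, with 0.37 and 0.35. Secreted regulators were Fstl1 (follistatin-like 1) with 0.62 and 0.46 and Nov, a matricellular protein of the CCN family, with 0.51 and 0.46. The remaining genes were Srpx2, Fndc1, Fxyd6 and Rcn1, an endoplasmic reticulum calcium-binding protein.

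The 8 genes with the lowest r were Gsn, Smoc1, Sned1, Cp, Fam46c, Fmo2, Ndrg2 and Pdgfra. Gsn, which encodes the actin-severing protein gelsolin and is among the most abundant transcripts of uninjured fibroblast-like cells, had r of -0.28 at day 7 and -0.39 at day 14. Fmo2, a flavin monooxygenase, had -0.20 and -0.31, and Cp, which encodes the copper carrier ceruloplasmin, had -0.28 and -0.22. The fibroblast reference gene Pdgfra, the platelet-derived growth factor receptor alpha, had -0.21 and -0.18. In the summed counts, fibroblast-like cells with Cthrc1 held 594 CPM of Gsn at day 7 against 2447 CPM in cells without it, and 2697 against 7154 CPM at day 14. For Aspn the pairs were 862 against 275 CPM at day 7 and 1800 against 333 CPM at day 14. For Nov they were 609 against 56.0 CPM and 427 against 54.5 CPM.

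Day 3 fibroblast-like cells had no part in choosing these genes. Across 135 cells, 11 of the 15 genes had r at or above 0.29, the 95th percentile of all 9070 genes at that day. The highest were Lox with 0.50, Col12a1 with 0.43, Fstl1 with 0.41 and Postn with 0.41, whereas Fxyd6 had -0.05. Of the 8 genes at the other end, 6 lay below the day 3 median of 0.10, with Gsn at -0.30, Fmo2 at -0.29 and Cp at -0.22, while Pdgfra had 0.15 and Sned1 0.11.

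**Figure D4:**
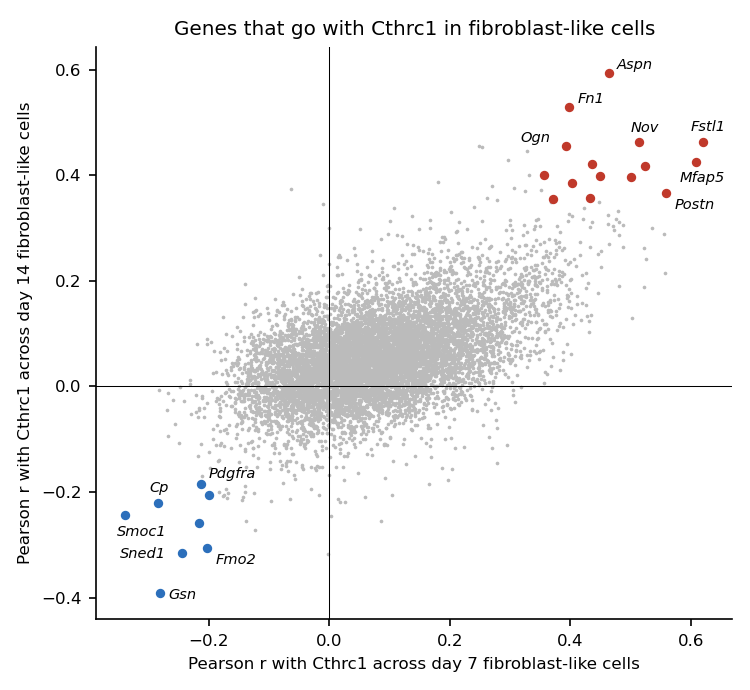
Each point is 1 of 9070 genes, with Pearson's r with Cthrc1 across fibroblast-like cells of day 7 on the horizontal axis and of day 14 on the vertical axis; red points are the 15 genes with the highest lower r, blue points the 8 with the lowest higher r, and a subset is labelled. Aspn, at 0.46 and 0.59, and Gsn, at -0.28 and -0.39, stand near opposite corners.

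Thinning changed which genes stood at both ends, but it also cut the cells and genes compared, so the part of depth alone was not tested. With each cell thinned to 2000 UMIs, which left 191 and 476 cells and 2387 genes detected often enough, 10 of the 15 genes with the highest r remained in the list, and 2 of the 8 lowest. All 15 kept r above 0 and all 8 kept r below 0 on both days. Within the sub-cluster led by C1qtnf3 alone, with 25 cells at day 7 and 196 at day 14, 8 of the 15 and 0 of the 8 remained, and the r of Rcn1 and of Smoc1 changed sign.

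Over cell classes and days, a different set of genes had the pattern most like Cthrc1. Across the 24 class and day groups, which share libraries, and among 7425 genes of at least 50 CPM in 1 group, P4ha3 had the highest r of log2 levels, 0.91. It held 0, 17.7, 70.8 and 28.2 CPM in fibroblast-like cells of days 0, 3, 7 and 14, and at most 11.2 CPM in any other group. P4ha3 was also among the 15 genes above. The next were the imprinted non-coding RNA H19 with 0.87, the cytokine gene Il6 with 0.84, the fibrillin gene Fbn2 with 0.84, the mechanically gated channel gene Piezo2 with 0.83, the kinase gene Dclk1 with 0.83, Tpbg with 0.83 and Ssc5d with 0.83. H19 held 0, 35.04, 88.6 and 109 CPM in the same cells and Fbn2 held 0, 13.9, 91.6 and 122 CPM, so both had their highest level at day 14 and not at day 7. Ssc5d was also highest at day 14, with 97.1 CPM against 88.3 at day 7. Il6 and Tpbg were highest at day 3, with 58.3 and 50.7 CPM against 40.5 and 34.0 at day 7. Across single fibroblast-like cells, the r of Il6 with Cthrc1 was -0.03 at day 7 and -0.07 at day 14. Postn ranked 248th with 0.64, and smooth muscle-like cells of day 3 held 1986 CPM of it.

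The lists of pathway genes were compared between fibroblast-like cells with and without a Cthrc1 UMI, within each library. A gene was called at a ratio of CPM of at least 2 in either direction, with 10 CPM added to both sides. At day 7, 177 positive cells stood against 51 negative ones, with median depths of 31562 and 1801 UMIs. At day 14, 364 stood against 177, with 20755 and 5862 UMIs, so depth moved with this split and its part in the ratios was not tested. The summed level of the 12 immune cell genes was 291 CPM in positive and 308 CPM in negative cells at day 7, and 34.8 and 56.4 CPM at day 14.

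Among the matrix genes of activated fibroblasts, some were called higher in the positive cells on both days. Of 27 members compared at day 7, 11 were called higher and 1 lower, beside 3.63% of all genes called higher and 8.73% called lower, with a list median of 0.93 on the log2 scale against -0.15 over all genes. Those called higher included Col8a1, a short-chain collagen (log2 ratio 2.12), Lox (1.82), Timp1, an inhibitor of matrix proteases (1.77), and Postn (1.42). Negative cells held 1 UMI of Ddah1, which was called as well, with a ratio of CPM of 15.0 and a counting interval of 2.67 to 592, and 0 UMIs of Lrrc15, against 161 in positive cells. Ddah1 and Lrrc15 passed the filter through the positive cells, so the day 7 matrix count and median are not read. Comp was the 1 member called lower (-1.73). At day 14, 9 of 26 were called higher and 0 lower, beside 0.826% of all genes higher and 1.26% lower, with a median of 0.63 against -0.04. Those called higher included Thbs4, a thrombospondin (3.22), Col8a1 (2.71), Aspn (2.40) and Lox (1.64). Ddah1 was called with 3 UMIs in negative cells and a ratio of CPM of 22.4 (7.60 to 109). It passed the filter through the positive cells here too, so the day 14 matrix count and median are not read either. Cells were split here by Cthrc1 itself in the cells from which the genes beside it were sought, so these counts are a description of that choice.

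The genes of planar cell polarity and Wnt5a signalling, the pathway on which the protein is reported to act, were compared in the same way. At day 7, 1 of 17 members was called higher and 2 lower (median -0.18), beside the 3.63% and 8.73% of all genes, and at day 14 0 of 17 were called either way (median 0.02). The member called higher was Fzd6, a Frizzled receptor, with 2 UMIs in negative cells and a ratio of CPM of 3.37 whose counting interval reached from 0.919 to 28.0. Dvl2, an intracellular mediator of Wnt receptors, had -1.29 and Prickle2, a core polarity protein, had -1.14, from 7 and 6 UMIs in negative cells. Fzd6, Dvl2 and Prickle2 were each under 10 CPM in the group where they were lower, and passed the filter through the other group. With doublets kept, 1 of 16 was called higher and 0 lower, beside 340 of 8616 genes higher and 521 lower. When cells were told apart after thinning to 2000 UMIs, with ratios still from full counts, 2 of 16 were called higher and 0 lower. The shares of all genes were then 1.63% and 1.90%. The ligand gene Wnt5a had -0.35 at day 7 and -0.71 at day 14, and the co-receptor gene Ror2 had -0.18 and 0.02, both under the fold needed for a call.

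Of 25 genes of the TGF-beta pathway, 3 were called higher and 1 lower at day 7 (median -0.07), and 0 higher and 2 lower at day 14 (median -0.15). Of all genes, 3.63% were called higher and 8.73% lower at day 7, and 0.826% and 1.26% at day 14. Those called higher included Ctgf, a CCN family matricellular gene (1.76), and the activin subunit gene Inhba, with 3 UMIs in negative cells and a ratio of CPM of 5.75 (1.96 to 28.0). Tgfbi, which encodes a secreted matrix protein, was called lower on both days, with -1.06 and -1.08, and Id1, a target gene of BMP signalling, was the other one called lower at day 14 (-1.56). The ligand genes were not called: Tgfb1 had 0.80 and -0.45, Tgfb2 had 0.33 and 0.19, and Tgfb3 had 0.73 and 0.64.

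Genes of resting adventitial fibroblasts were divided, and their counts stand beside the same shares of all genes. At day 14, 3 of 17 were called higher, namely Dpp4 (1.62), Sema3c (1.33) and Pi16 (1.15). Called lower were 4, namely Apod (-2.09), Cxcl12 (-1.99), Gsn (-1.40) and Penk (-1.31). At day 7, 1 of 16 was called higher (Mfap5, 2.01) and 3 lower, namely Apod (-5.83), Gsn (-2.02) and Clec3b (-1.13). When cells were told apart after thinning to 2000 UMIs, with ratios still from full counts, 0 of 17 resting genes were called higher and 3 lower at day 14. At day 7, 5 of 16 were then called higher and 1 lower, and the lowest log2 ratio among the 16 was -1.13. The thinned shares of all genes were 0.515% higher and 0.635% lower at day 14, and 1.63% and 1.90% at day 7. Of the inflammatory genes, Saa3 (4.33), Lcn2 (2.49) and Cxcl5, with 2 UMIs in negative cells and a ratio of CPM of 15.5 (4.27 to 128), were called higher at day 7 among 11 compared, and Cxcl10 was called lower (-1.39). Cxcl5 passed the filter through the positive cells. At day 14, 0 of 8 inflammatory genes were higher and 4 lower, namely Ccl2 (-2.86), C3 (-1.93), Il6 (-1.67) and Has1 (-1.58). The unthinned shares of all genes, for both lists, were 3.63% higher and 8.73% lower at day 7, and 0.826% and 1.26% at day 14.

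Contractile genes and proliferation genes gave values that depended on how cells were grouped. At day 7, 8 of 10 contractile genes were called lower in positive cells (median -1.89), and 6 of 11 proliferation genes higher (median 1.12), beside 8.73% of all genes lower and 3.63% higher. Of the 6, the negative cells held 0 UMIs of Birc5, Cenpf and Pclaf, 1 each of Cdk1 and Ube2c and 2 of Mki67, so these genes passed the filter through the positive cells and their count and median are not read. Of the 8 contractile genes, Des, Myh11 and Cnn1 were each under 10 CPM in positive cells, with 14, 19 and 13 UMIs in negative cells. These 3 passed the filter through the negative cells, so the contractile count and median are not read either. With separate clustering of the libraries, the day 7 medians were 1.93 over 6 contractile genes and -1.31 over 2 proliferation genes. When cells were told apart after thinning to 2000 UMIs, with 129 positive and 62 negative cells, 9 of 12 proliferation genes were called lower (median -1.27) and 4 of 9 contractile genes lower (median -0.77), beside 1.63% of all genes called higher and 1.90% lower. The sign of the proliferation median thus differed between settings. Under the same split, 16 of 27 matrix genes were called higher and 0 lower at day 7. At day 14, 8 of 26 were higher and 0 lower, where 0.515% of all genes were called higher and 0.635% lower. That split thinned only the Cthrc1 count that told cells apart, while the ratios used full counts. Median depths of positive and negative cells were still 34887 and 14472.5 UMIs at day 7, and 22894 and 16627 at day 14. The part of depth was not tested, and these matrix counts are not read either. Without thinning, 0 of 7 contractile genes were called at day 14. Of the immune cell genes, 0 of 6 and 0 of 2 were called at days 7 and 14. When clusters with markers of 2 kinds of class were named, however, 8 of 8 were called lower at day 7 (median -1.41). In that setting, 795 of 8848 genes were called lower and 278 higher.

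**Figure D5:**
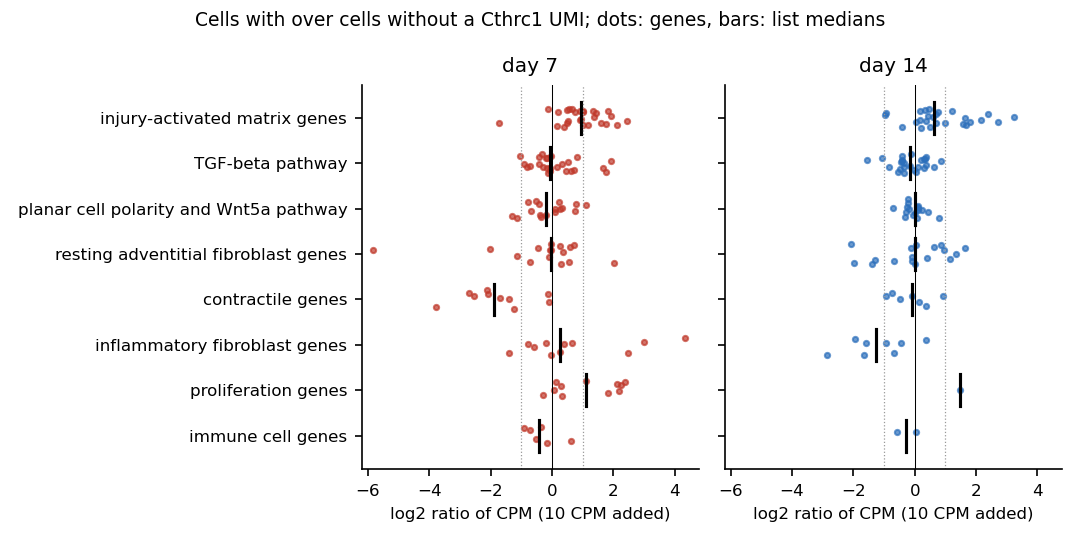
Each dot is 1 gene of a list, placed along the horizontal axis by its log2 ratio of CPM (10 CPM added) between fibroblast-like cells with and without a Cthrc1 UMI at day 7 (left) and day 14 (right); bars are list medians and dotted lines mark the fold of 2. The bars of the injury-activated matrix genes stand at 0.93 and 0.63. These medians are not read, because members of the list passed the filter through the positive cells.

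The same lists were also set against day 0 in the whole fibroblast-like class, in comparisons that share the 231 day 0 cells. At day 3, 5.13% of 8298 genes were at least 2-fold higher and 5.33% at least 2-fold lower. At day 7 these shares were 4.90% and 4.59%, and at day 14 they were 3.05% and 2.14%. Several matrix genes were at or near 0 at day 0, among them Adam12, Tnc, Col11a1 and Lrrc15 with 0 CPM, and passed the filter only through their level after injury, so the matrix counts are not read. In day order, Fn1 held 321, 1015, 2427 and 1937 CPM, while Fmod, a small proteoglycan gene, held 357, 11.0, 100.8 and 191.7 CPM. Of the planar cell polarity genes, 0 of 15, 1 of 17 and 1 of 17 were higher and 1, 2 and 0 lower. The higher ones were Fzd6 at day 7 (log2 ratio 1.53) and Fzd1 at day 14 (1.19). Fzd6 held 4.06 CPM at day 0 and passed the filter through its day 7 level. The ligand gene Wnt5a held 250.03 CPM at day 0 and 68.8, 71.7 and 144 CPM afterwards, opposite in direction to Cthrc1. Of the TGF-beta pathway, 2, 3 and 2 of 25 genes were higher and 5, 4 and 3 lower. In day order, Tgfb2 held 57.8, 74.9, 148 and 42.7 CPM and Tgfb3 held 97.9, 40.3, 166 and 217 CPM.

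Of 17 resting adventitial genes, 9, 7 and 2 were at least 2-fold lower than at day 0 and 2, 1 and 1 at least 2-fold higher, among the latter Cxcl12 at day 3 (log2 ratio 1.82) and Apod at day 7 (2.01). Dpp4 and Penk, counted as lower at days 3 and 7, passed the filter through their day 0 level of 31.6 and 38.8 CPM. Gsn held 10460 CPM at day 0, then 570, 661 and 3470 CPM. Most inflammatory genes and all 12 proliferation genes were below 12 CPM at day 0, so that they entered these comparisons mainly through their level after injury, and their counts are not read. Cxcl1, a neutrophil-attracting chemokine gene, held 11.3 CPM at day 0, then 543, 399 and 149.6 CPM. C3, which encodes a complement component, held 779 CPM at day 0 and 468, 479 and 664 CPM afterwards.

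The protein-coding genes on either side of Cthrc1 in the RefSeq annotation of GRCm38.p6, neither of which overlaps it, are Fzd6 and Slc25a32. Fzd6, a Frizzled receptor gene, held 4.06 CPM in fibroblast-like cells at day 0 (1.86 to 7.71), 9.93 CPM at day 3 (7.48 to 12.9), 30.7 CPM at day 7 (26.4 to 35.4) and 12.0 CPM at day 14 (9.86 to 14.5). Its highest level thus fell on the same day as that of Cthrc1. Slc25a32, a mitochondrial folate carrier gene, held 14.0, 14.6, 21.6 and 21.7 CPM, and its intervals at days 7 and 14 overlapped. Across single cells, r with Cthrc1 was 0.27 and 0.20 for Fzd6 at days 7 and 14, and 0.14 and 0.05 for Slc25a32.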

How the data were processed

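The authors deposited raw UMI counts for the genes and cell barcodes of 4 libraries, 1 for each day, as Cell Ranger 3.0.2 wrote them per the file headers, without normalization; the methods text names another version, and the mouse genome build is not stated in a usable form. Gene symbols and barcodes came from the deposited companion files. Of 6161 barcodes, the 214 shallow members of shared pairs were removed, then 453 with under 200 genes or over 20% mitochondrial UMIs and 102 with the highest Scrublet doublet scores, 20 of which met both criteria (0.8% per 1000 barcodes, since Scrublet's own threshold marked 0.243%). Cells of all libraries were clustered in scanpy 1.11.5 (2000 variable genes, 30 components, 15 neighbours, Leiden resolution 1, igraph 0.11.9), with Cthrc1 and the matrix, Wnt and TGF-beta lists left out of the variable genes. Clusters were named by at least 3 markers of a class (at least 50 CPM, 10% of cells, 3 times the lower quartile of clusters). After the data were examined, including Cthrc1 levels by cluster, the rule was made stricter: a cluster with 3 markers of both an immune and a non-immune class, or a shallow one with fewer than 2 own markers among its 10 leading genes, stayed unnamed, and the remaining unnamed clusters were divided a single time if they held 60 cells or more. In all, 445 cells (8.22%) stayed unnamed. Cell names were rebuilt from markers and can differ from those of the study for that reason.

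CPM are UMIs of a gene for each 1000000 UMIs of the cells summed, with exact Poisson intervals; shares have exact binomial (Clopper-Pearson) intervals, and ratios exact conditional intervals. A count of 0 was given a limit of 3 counts. Non-immune cells were clustered again at resolution 0.5 (0.8 as the alternative). No test was run, because each day had 1 library and the gene was chosen on these values. Genes were named by rule: the 15 and 8 genes at either end of r, the 8 most alike over class and day groups, and members of 8 lists, which needed 20 UMIs and a mean of 10 CPM to be compared. Cthrc1, the lists and the rules were chosen with earlier results of these data known. Functions were tested on simulated cells. No paired analysis applied. Values of 1 member of the TGF-beta list are not reported here.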

Additional observations from a re-analysis of the deposited data

Results flagged for a closer look

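Barcodes that no comparison used also held Cthrc1 above the day 0 fibroblast-like level of 2.71 CPM (0.994 to 5.89). Barcodes left without a class held 194 CPM at day 3 (127 to 285, from 58 barcodes) and 748 CPM at day 7 (657 to 848, from 370 barcodes). A cluster of 336 such barcodes, of which 333 came from the day 7 library, had a median of 751.5 UMIs and carried markers of immune and of other classes together, with 608 CPM of Cthrc1. Barcodes removed by the filters, doublets included, held 60.5 CPM at day 3 (44.4 to 80.4), 172 CPM at day 7 (152 to 194) and 46.5 CPM at day 14 (22.3 to 85.5), against 0 Cthrc1 UMIs in 4 such barcodes at day 0. The order of days among the removed barcodes differed from that of fibroblast-like cells in that day 3 lay above day 14, but the intervals of those days overlapped. The source of the Cthrc1 UMIs in these barcodes was not tested.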

How the results depend on the processing

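The order of days in the fibroblast-like Cthrc1 level was the same in the 9 settings run, while the levels themselves moved. The day 0 level was 2.71 CPM in the main analysis and 4.43 CPM with each library clustered on its own. The day 7 level was 1419 CPM with doublets kept, 1738 with each library clustered on its own, 1642 with shared barcodes kept and 1499 with unnamed clusters not split. As the mean of each cell's CPM, the levels were 423, 1090 and 547 at days 3, 7 and 14, and those of immune-like cells 10.6, 28.3 and 19.5. The fibroblast-like share of Cthrc1 UMIs was 100% and 24% at day 0 with own clustering and with shared barcodes kept. It was 97.8% at day 3 and 91.5% at day 7 with at least 500 genes and at most 10% mitochondrial UMIs. Leaving out contractile genes gave 93.0% at day 7. Own clustering gave 85.3% and 97.1%, and shared barcodes kept 88.8% and 98.8%, at days 7 and 14. With unnamed clusters not split, the share was 74.5%, 87.7% and 96.9% at days 3, 7 and 14. The share of positive cells was 2.60%, 70.4%, 77.6% and 67.3% without thinning, and 48.3%, 67.5% and 46.8% at days 3, 7 and 14 when thinned to 2000 UMIs, and 27.4% at day 14 with shared barcodes kept. Smooth muscle-like levels at days 3, 7 and 14 were 3.89, 118 and 6.61 CPM as means of cells, 17.8, 302 and 1.62 with own clustering, and 3.44, 45.6 and 1.59 without the cell of most Cthrc1 UMIs. The day 3 endothelial-like level was 3.05 CPM as a mean of cells and 16.2 without that cell. At the finer resolution, the sub-cluster led by Abca8a and Rbp4 held 18.2 CPM and that of the highest level 1256 CPM.

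Of the 15 genes with the highest r, 8 were shared within the leading sub-cluster, where the r nearer 0 of Rcn1 was -0.0301 and that of Smoc1 0.0240. Of the 8 lowest, 5 were shared with contractile genes left out, 5 with clusters of mixed markers named, 5 with Spearman's rho, 2 after thinning to 2000 UMIs and 0 within the leading sub-cluster. At day 7, the genes called higher numbered 561 with own clustering, 590 with 1 CPM added, 1009 at a ratio of 1.5 and 139 after thinning, and those called lower 1437, 2106 and 162 in the last 3 of these settings. At day 14 the last 3 gave 130, 228 and 43 higher and 201, 331 and 53 lower. Matrix genes called higher at day 7 numbered 18 with own clustering and 18 at a ratio of 1.5, and 0 were called lower after thinning. At day 14, 1 was called lower with own clustering, beside 104 of 8418 genes, and 2 at a ratio of 1.5. Among list medians past 1 on the log2 scale, those that changed sign were all of day 7: 1.93 for contractile genes with own clustering, and -1.31 and -1.27 for proliferation genes with own clustering and after thinning. Smaller day 7 medians changed sign in 6 of 11 settings for resting genes (-0.25 to 0.65), 3 for inflammatory genes (-0.35 to 0.78), 2 for planar cell polarity genes (-0.37 to 0.26) and 1 for immune cell genes (-1.41 to 0.07). At day 14 they did so in 4 for resting, 2 for planar cell polarity, 1 for contractile and 1 for immune cell genes. The medians of matrix and TGF-beta genes kept their sign in all 11 on both days. Every setting split the cells by Cthrc1, and the matrix medians are not read for the reason given above. The cause was not tested, apart from what each setting changes by construction. Shared barcodes kept, both earlier naming rules, the level without the top cell and the lists between days were chosen after seeing the data. No paired analysis was possible because each day had 1 library.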
